A study of Homo sapiens with 18 samples.

Results

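RNA-seq libraries of NCI-H1299 cells given a TBX2 plasmid were compared with libraries of the same cells given a TBX4 plasmid. The comparison took 6 of the 18 libraries of the series, 3 with TBX2 and 3 with TBX4 (replicates a, b and c), chosen by their labels and not by any measured value. NCI-H1299 is a human lung cancer line derived from a single patient, grown in low-glucose medium with FBS. Both cDNAs were human, Flag-tagged and carried by the same pORF type of vector, delivered transiently with Lipofectamine 2000, so that each library averaged transfected and untransfected cells. Controls were 6 libraries, of which 3 received empty vector (EV) and 3 bear the label Ctl with no treatment named in the sources used here. TBX4 replicate c is titled with number 4 and the word TBX5. It was taken as TBX4 by that number, and its reads gave 7860 CPM of TBX4 and 1 count of TBX5. No label says whether the replicates of a group came from separate transfections, so the p-values below measure only the spread between these samples, which may be technical.

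T-box proteins are transcription factors that share a DNA-binding domain and recognise variants of the T-box element, whose core reads GGTGTGA. TBX2 and TBX3 are mainly known as repressors and TBX4 and TBX5 mainly as activators, and the TBX2 to TBX5 genes are thought to derive from a single ancestral pair. In the embryo, all take part in limb or lung development, where TBX4 marks the lung mesenchyme. TBX2 and TBX4 lie next to each other on chromosome 17, and the comparison asks how the responses of the same cells differ between the 2 neighbours.

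The TBX2 libraries held 7365221, 9146562 and 7395332 counts, and the TBX4 libraries 9945119, 10276199 and 9188954. A level of 3 counts, taken as the floor, corresponded to 0.301 to 0.486 CPM with TBX2 and to 0.233 to 0.277 CPM with TBX4. CPM here is the count scaled to a fixed library size after TMM scaling, which corrects for differences in library composition. A single gene without a symbol, ENSG00000266658, took 19.6%, 28.2% and 40.5% of the counts with TBX2 and 13.2%, 14.8% and 18.6% with TBX4, and its 95% Wilson intervals were at most 0.071 percentage points wide. PCR copies were not told apart, so these intervals and the floor cover counting error only. The groups did not overlap in this share, and some results below are also given with it as a covariate. Pearson's r of log2 CPM across genes was 0.982 to 0.986 between TBX2 replicates and 0.989 to 0.991 between TBX4 replicates.

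TBX2 (chromosome 17, 59477204 to 59486827, plus strand, GRCh37) was measured at 4070, 4810 and 4480 CPM in the TBX2 libraries and at 3.59, 3.57 and 2.58 CPM in the TBX4 libraries. The 6 controls lay between 3.06 and 4.82 CPM, so that the TBX4 libraries kept the level of the endogenous gene. The difference was 10.40 ± 0.14 on the log2 scale (SE), with an edgeR adjusted p of 1.64e-29. TBX4 (59529765 to 59562471, plus strand) reached 7520, 8470 and 7860 CPM in the TBX4 libraries and 1.95, 1.91 and 1.78 CPM in the TBX2 libraries, a log2 difference of -12.03 ± 0.18 (edgeR adjusted p = 1.81e-26). The controls held TBX4 at 0 to 0.0989 CPM, at most 1 count, whereas the TBX2 libraries held 17, 19 and 11 counts. Whether these few reads came from the endogenous gene or from elsewhere was not tested. Per kilobase of coding length, TBX2 in its own libraries averaged 2085 ± 172 CPM (SD, n = 3) and TBX4 in its own 4855 ± 294 CPM, so the 2 transgenes did not reach equal transcript levels, and the protein levels are not in these files.

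**Figure D1:**
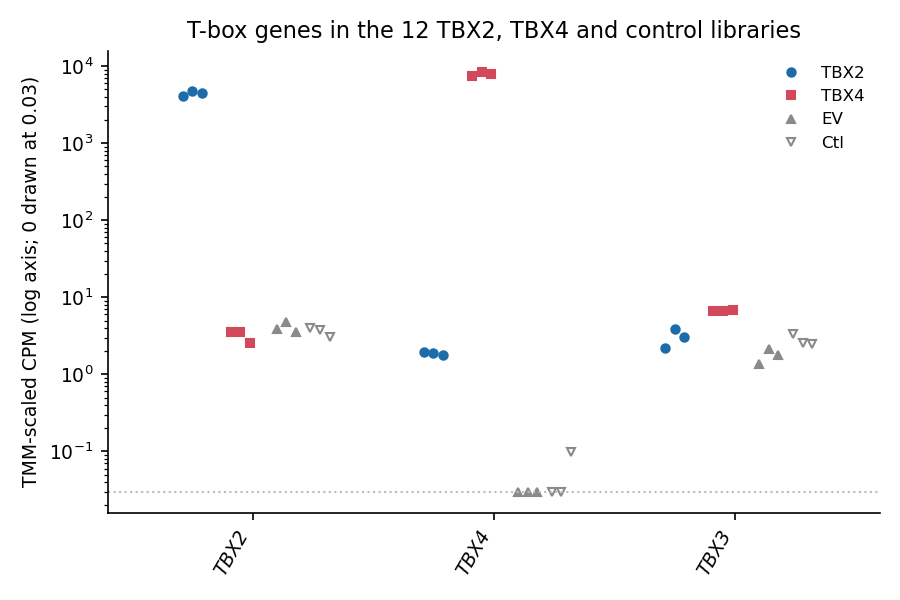
Level of TBX2, TBX4 and TBX3 in the TBX2, TBX4, EV and Ctl libraries. The y axis gives TMM-scaled CPM on a log scale with values of 0 drawn at 0.03, and each point is a library. Each plasmid's gene stood at 4070 CPM or more in its own 3 libraries and at 3.59 CPM or less in the libraries of the other plasmid.

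Of the other T-box genes, TBX3, the closest relative of TBX2, was measured at 2.18, 3.91 and 3.08 CPM with TBX2 and at 6.55, 6.67 and 6.83 CPM with TBX4. All 3 TBX4 libraries lay above all TBX2 libraries and above the controls, which reached 3.32 CPM, and the log2 difference was -1.11 ± 0.23 (edgeR adjusted p = 0.00189). Against the 6 controls TBX3 differed by 1.58 on the log2 scale with TBX4 (edgeR adjusted p = 1.75e-06) and by 0.47 with TBX2 (edgeR adjusted p = 0.161). TBX5, the neighbour of TBX3 on chromosome 12 and the closest relative of TBX4, had at most 1 count in any of the 6 libraries. The 6 other T-box genes that could be tested did not pass the threshold. Among them were TBX18 at 29.1 to 33.1 CPM with TBX2 and 32.5 to 35.1 CPM with TBX4, and MGA, a T-box protein that dimerises with MAX, at 154 to 160 and 157 to 169 CPM.

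The genome around the pair was examined next. TBX2 and TBX4 are separated by 42937 bases that hold 1 annotated gene, and 11 other genes within 1 Mb passed the filter on low counts. Of these, 4 were higher with TBX2 and 0 higher with TBX4, where 6.66% and 5.61% of all tested genes were, with a median log2 difference of 0.26 against -0.00497 over all tested genes. MED13, a subunit of the Mediator kinase module, was at 193, 197 and 197 CPM with TBX2 and at 159, 148 and 158 CPM with TBX4 (log2 difference 0.34, edgeR adjusted p = 0.000357), with controls at 143 to 153 CPM. TLK2, a kinase that acts on histone chaperones, differed by 0.41 (edgeR adjusted p = 0.00335), and its TBX2 libraries lay above its TBX4 libraries. PPM1D, the phosphatase WIP1, differed by 0.40 and APPBP2 by 0.26, but PPM1D fell to 0.327 and APPBP2 to 0.205 without TBX2 replicate b, and APPBP2 to 0.237 without TBX4 replicate b and to 0.24 without the filter on low counts, and these no longer passed. TBX2-AS1, transcribed from the opposite strand across TBX2, was at 0.486 to 1.72 CPM with TBX2 and at 1.11 to 1.20 CPM with TBX4.

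Over all 15576 tested genes, out of 63677 in the count table, 1037 were higher with TBX2 (6.66% of those tested) and 874 were higher with TBX4 (5.61%) at an edgeR adjusted p under 0.1. Of the genes higher with TBX2, 134 reached an absolute log2 fold change of 1 (0.86% of tested genes), against 43 of those higher with TBX4 (0.276%). At an adjusted p under 0.05 the counts were 721 (4.63%) and 543 (3.49%). The 3 libraries of a group lay wholly above those of the other in 12.7% of tested genes for TBX2 and in 12.3% for TBX4. Against the controls 33.7% of tested genes passed with TBX2 and 11.6% with TBX4. The median size of a called difference was 0.378 and the median SE of all tested genes was 0.134 on the log2 scale. In bulk RNA, a lower level in each cell and fewer cells that express a gene cannot be told apart, here including fewer transfected cells. Library totals used instead of TMM moved the median of all tested genes to -0.251 and left 51 and 25 calls, of which 50 and 25 were among those of the TMM fit, with 67.1% of calls higher with TBX2 in place of 54.3%. These totals include ENSG00000266658. With that gene taken out and TMM kept, 1036 and 879 genes were called, of which 1030 and 872 were among those of the main fit. Leaving out single libraries gave 676 genes higher with TBX2 without TBX4 replicate b, and 498, 522 and 504 genes higher with TBX4 without TBX2 replicate c, TBX4 replicate a and TBX4 replicate b.

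**Figure D2:**
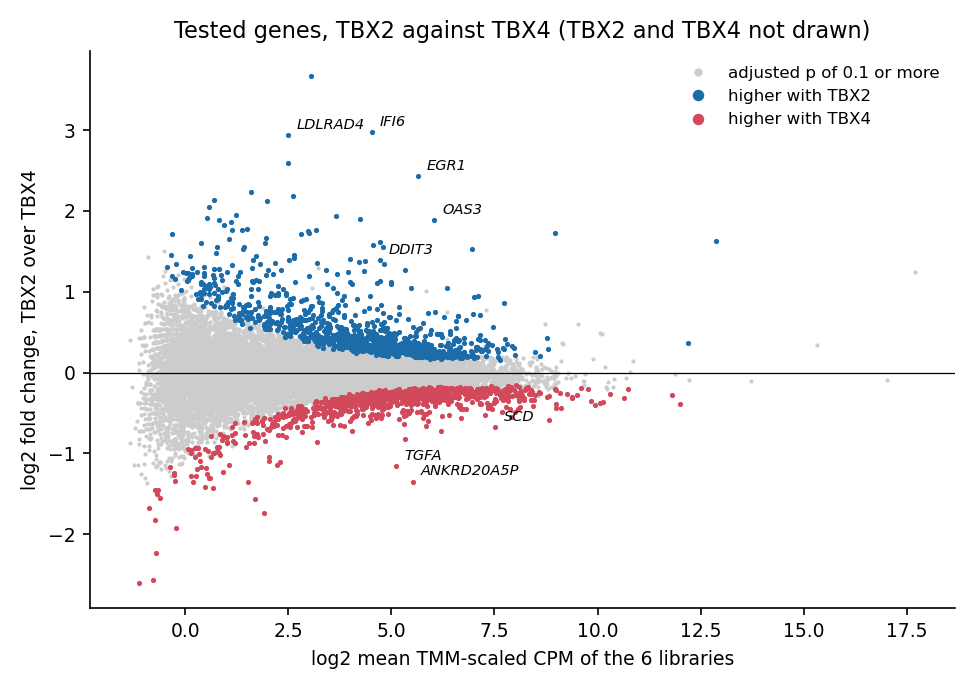
Log2 fold change of TBX2 over TBX4 (y axis) against the log2 of the mean TMM-scaled CPM of the 6 libraries (x axis) for the tested genes other than TBX2 and TBX4. Blue points are the genes higher with TBX2 and red points those higher with TBX4 at an edgeR adjusted p under 0.1. IFI6 stood at 2.98 and LDLRAD4 at 2.94 on the TBX2 side, and TGFA at -1.16 on the TBX4 side.

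Genes of the interferon response led the TBX2 side. Type I interferons bind the receptor made of IFNAR1 and IFNAR2, whose kinases JAK1 and TYK2 phosphorylate STAT proteins. STAT2 and IRF9 belong to a complex that binds the interferon-stimulated response element, built of GAAA repeats, and switches on antiviral genes. Nucleic acid sensors such as RIGI and IFIH1 can start the same programme from inside the cell. Of 45 interferon-stimulated genes listed, 28 were tested. Of these, 26 were higher with TBX2 and 0 higher with TBX4, where 6.66% and 5.61% of all tested genes were. Their median log2 difference was 1.17. Their summed level was 824 to 878 CPM in the TBX2 libraries, 350 to 357 CPM in the TBX4 libraries and 278 to 340 CPM in the controls. Against the controls 28 were higher with TBX2 and 11 with TBX4, where 17.7% and 6.79% of all tested genes were. These controls are the average of EV and Ctl, which differed for some of these genes. ISG15, for example, was at 10.3 to 12.8 CPM in EV and at 3.66 to 4.98 CPM in Ctl. TBX4 was not compared with EV alone, so the 11 are not counts of differences from empty vector. With the share of ENSG00000266658 as a covariate 25 were higher with TBX2, and with library totals 12, while single libraries left out gave 22 to 25.

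IFI6 is an interferon-induced mitochondrial and ER membrane protein. The transfected genes aside, it had the largest difference among tested genes with a symbol and at least 5 CPM in the higher group. It was at 39.8, 43.6 and 38.2 CPM with TBX2 and at 5.11, 4.73 and 5.63 CPM with TBX4. The groups were far apart, and the controls lay below both at 2.15 to 4.33 CPM. The fold difference was 7.91 (log2 2.98 ± 0.12, edgeR adjusted p = 4.57e-17). OAS3, which makes the oligoadenylates that activate RNase L, was at 103, 100 and 104 CPM against 25.7, 27.9 and 29.1 CPM. Here the TBX4 libraries lay with the controls, at 23.6 to 28.8 CPM, and the log2 difference was 1.89 ± 0.07 (edgeR adjusted p = 6.34e-18). ISG15, a ubiquitin-like modifier, was at 42.5, 44.2 and 36.6 CPM with TBX2 and at 13.7, 13.5 and 15.3 CPM with TBX4 (log2 1.55 ± 0.11, edgeR adjusted p = 1.65e-11). Its EV libraries, at 12.1, 10.3 and 12.8 CPM, stood between the TBX4 libraries and the Ctl libraries, at 4.98, 4.51 and 3.66 CPM. IFIT1, which binds foreign RNA ends, showed the same order of groups, with 16.7, 20.3 and 16.0 CPM for TBX2, 8.22, 5.66 and 9.32 CPM for TBX4, 6.68 to 6.85 CPM for EV and 1.86 to 2.83 CPM for Ctl, although TBX4 and EV overlapped.

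The promoters of these genes were searched for the response element on both strands, in the 250 bases before to 50 after the start of each gene given by RefSeq (GRCh38.p14). The pattern was GAAA followed after any 2 bases by GAAA again. A match, overlapping matches included, was present in 3.65% of 27305 promoters, 2.74% of the 10735 tested genes with a promoter, 5.84% of the genes higher with TBX2 and 2.33% of those higher with TBX4. Of the 23 tested interferon-stimulated genes with a promoter, 16 held a match (69.6%). The motif was chosen after the values were seen, and a match is a description of letters, not of a bound site. Runs from 5 promoters, picked among those with a match, are printed in the direction of the gene. They are not those of the 5 genes with the largest differences. Capitals mark the matches, which appear in reverse complement where the match was on the other strand.
IFI6 (chr1:27672256-27672368, minus strand): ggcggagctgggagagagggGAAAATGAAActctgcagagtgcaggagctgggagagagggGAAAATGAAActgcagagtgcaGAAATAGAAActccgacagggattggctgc
ISG15 (chr1:1013364-1013419, plus strand): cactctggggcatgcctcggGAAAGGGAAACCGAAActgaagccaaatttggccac
DDX60 (chr4:168318776-168318860, minus strand): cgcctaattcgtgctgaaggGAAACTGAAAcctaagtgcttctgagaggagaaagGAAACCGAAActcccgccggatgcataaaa
IFIT1 (chr10:89392487-89392549, plus strand): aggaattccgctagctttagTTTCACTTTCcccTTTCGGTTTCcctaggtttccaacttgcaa
OAS3 (chr12:112938311-112938473, plus strand): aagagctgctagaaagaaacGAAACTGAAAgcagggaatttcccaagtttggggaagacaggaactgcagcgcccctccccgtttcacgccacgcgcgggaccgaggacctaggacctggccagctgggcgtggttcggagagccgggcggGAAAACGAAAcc

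By their role in the pathway, the ligands were at the floor. IFNB1 had 2 counts over the 3 TBX2 libraries and 1 over the 3 TBX4 libraries, IFNL1, IFNL2, IFNL3, IFNG and IFNA2 had 0 in these 6 libraries, and IFNE had 10 and 9, so none could be tested. A count of 0 still allows a level up to the floor. The receptors and their kinases did not pass the test. IFNAR1 was at 38.1, 29.8 and 41.4 CPM with TBX2 and at 32.2, 31.3 and 36.2 CPM with TBX4 (log2 0.12, edgeR adjusted p = 0.593), and the groups overlapped. JAK1 differed by -0.08 on the log2 scale (edgeR adjusted p = 0.489).

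The transcription factors downstream were higher with TBX2. IRF9 was at 4.35, 5.92 and 4.53 CPM against 1.60, 0.621 and 0.923 CPM (log2 2.24 ± 0.31, edgeR adjusted p = 1.57e-05). IRF7, the master regulator of later interferon production, differed by 1.72 ± 0.21 (edgeR adjusted p = 2.37e-06). STAT2 differed less, by 0.30 ± 0.09 (edgeR adjusted p = 0.0314), and did not pass without TBX2 replicate b (0.191) or without TBX4 replicate b (0.275).

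Sensors and effectors followed. Of 9 tested nucleic acid sensors and adaptors, 3 were higher with TBX2 and 0 higher with TBX4. The shares of all tested genes were 6.66% and 5.61%. IFIH1, the long double-stranded RNA sensor MDA5, was at 35.1, 37.4 and 35.4 CPM against 17.6, 16.0 and 15.7 CPM (log2 1.13 ± 0.10, edgeR adjusted p = 1.16e-09). RIGI differed by 0.84 and EIF2AK2, the RNA-activated kinase PKR, by 0.94, and both are themselves interferon-stimulated. The sensor CGAS and the adaptors MAVS and STING1 did not pass, with log2 differences of 0.10, -0.26 and -0.10. Among effectors, the helicase DDX60 was at 34.2, 33.9 and 38.0 CPM against 11.3, 11.2 and 12.9 CPM, and its neighbour on chromosome 4, DDX60L, at 13.4, 14.0 and 14.4 CPM against 4.71, 3.65 and 3.97 CPM. Both pairs of groups were clearly apart, with log2 differences of 1.58 ± 0.10 and 1.76 ± 0.14. The ubiquitin ligase DTX3L and its partner PARP9, which share a stretch of chromosome 3, differed by 1.34 and 1.12, and HELZ2, an interferon-induced helicase, by 1.90. MX1, an antiviral GTPase, did not pass the filter on low counts but had 56, 60 and 30 counts with TBX2 and 6, 11 and 5 with TBX4, and a fit without the filter gave a log2 difference of 3.22 (edgeR adjusted p = 3.66e-24). OAS2 had 33, 31 and 22 counts with TBX2 against 2, 0 and 2 with TBX4. MX1 and OAS2 were picked from the untested members after their values were seen. The other untested members are not described, so these 2 add nothing to the counts above. The 2 tested members not called were IFI27, at 1.62 to 2.40 CPM with TBX2 and 1.85 to 3.11 CPM with TBX4, and LGALS3BP, with a log2 difference of 0.57 (edgeR adjusted p = 0.11).

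Presentation by MHC class I, a later arm of the same response, differed by less. Of 12 genes, 7 were higher with TBX2 and 0 higher with TBX4, where 6.66% and 5.61% of all tested genes were. Their median was 0.265. Without TBX2 replicate b the count was 4, without TBX4 replicate a 3, and with library totals 0. HLA-B was at 101, 124 and 98.7 CPM against 86.8, 82.1 and 72.9 CPM (log2 0.43 ± 0.08, edgeR adjusted p = 0.00138). Reads of the HLA genes can be shared between near-identical copies, so their values are uncertain. B2M, the light chain, was at 135, 153 and 148 CPM against 121, 114 and 125 CPM (log2 0.28 ± 0.07, edgeR adjusted p = 0.0116), and the controls lay at 98.5 to 116 CPM, overlapping the TBX4 libraries only at the upper end. The immunoproteasome subunit PSMB8 did not pass, with 5.99 to 7.42 CPM against 6.92 to 7.82 CPM.

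The integrated stress response formed another group higher with TBX2. In this response, kinases that phosphorylate eIF2α slow translation and favour the transcription factor ATF4, which drives genes of amino acid import and synthesis, tRNA charging and, with DDIT3, cell death. Of 38 listed genes 35 were tested. Among these, 25 were higher with TBX2 and 0 higher with TBX4, where 6.66% and 5.61% of all tested genes were. Their median log2 difference was 0.422. The summed level was 1910 to 2000 CPM with TBX2, 1410 to 1450 CPM with TBX4 and 1330 to 1510 CPM in the controls. Single libraries left out gave 21 to 24 calls, the share of ENSG00000266658 as a covariate 23, and library totals 6.

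Among the regulators, ATF4 itself was at 126, 166 and 134 CPM with TBX2 and at 137, 136 and 125 CPM with TBX4. The groups overlapped and the difference did not pass (log2 0.10, edgeR adjusted p = 0.619); ATF4 is known to be controlled mostly at translation, which these counts do not measure. DDIT3, the factor CHOP, was at 34.3, 45.0 and 34.8 CPM against 14.8, 14.6 and 14.5 CPM (log2 1.39 ± 0.11, edgeR adjusted p = 4.98e-10). As for ISG15, its EV libraries, at 12.8, 13.3 and 11.7 CPM, lay close to those of TBX4 and above those of Ctl, at 6.25 to 6.72 CPM. TRIB3, a pseudokinase that restrains ATF4 and AKT, was at 27.1, 29.0 and 23.3 CPM against 9.34, 10.3 and 11.4 CPM (log2 1.37 ± 0.10). CHAC1, which degrades glutathione, was at 5.95, 6.82 and 4.86 CPM against 1.76, 1.71 and 2.22 CPM (log2 1.67 ± 0.22, edgeR adjusted p = 8.40e-06). SESN2, an inhibitor of mTORC1, differed by 1.26 and DDIT4, another such inhibitor, by 1.86. DDIT4 was low, with 25, 43 and 18 counts with TBX2 against 7, 19 and 8 with TBX4. These were the 2 of 26 tested members of an MTOR and AKT pathway list higher with TBX2, and 3 were higher with TBX4. Over all tested genes the shares were 6.66% and 5.61%. DESeq2 called 1 member of this list in each direction. PPP1R15A, the eIF2α phosphatase subunit GADD34, differed by 0.62 but did not pass without TBX2 replicate b, where its log2 difference was 0.39, with the share of ENSG00000266658 as a covariate, where it was 0.409, or in DESeq2, where it was 0.61.

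Metabolic targets moved with these regulators. ASNS, asparagine synthetase, was at 171, 160 and 173 CPM with TBX2 and at 89.7, 83.3 and 89.8 CPM with TBX4 (log2 0.94 ± 0.10, edgeR adjusted p = 5.85e-08), and the controls lay near the TBX4 libraries at 66.9 to 88.9 CPM. Its pseudogene ASNSP1 stood among the 12 largest differences, at 8.23 to 11.7 CPM against 1.32 to 3.32 CPM, but shares sequence with ASNS and its reads are uncertain. SLC7A11, the cystine carrier, was at 55.6, 57.7 and 55.7 CPM against 24.3, 20.6 and 25.4 CPM (log2 1.27 ± 0.09). Its partner chain SLC3A2 was at 121, 130 and 115 CPM against 77.7, 73.9 and 74.9 CPM (log2 0.69 ± 0.07). In both the 3 TBX2 libraries lay above all others of the comparison. The alanyl-tRNA synthetase AARS1, the serine pathway enzyme PHGDH and the mitochondrial enzyme PCK2 differed by 0.71, 0.60 and 0.98, all with edgeR adjusted p under 0.001.

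A composite site of C/EBP and ATF factors through which ATF4 acts contains TGATGNAA. This motif was found on either strand in 3.67% of all promoters, in 1.68% of tested genes with a promoter, in 2.92% of the genes higher with TBX2 and in 6 of the 28 stress response genes with a promoter (21.4%). It too was chosen after the values were seen. Runs from 4 of them are shown with the matches in capitals, in reverse complement where they lie on the other strand, since these are known stress response genes of which each was higher with TBX2.
ASNS (chr7:97872449-97872496, minus strand): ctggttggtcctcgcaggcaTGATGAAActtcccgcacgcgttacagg
CHAC1 (chr15:40953242-40953289, plus strand): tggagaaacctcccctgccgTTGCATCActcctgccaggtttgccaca
HERPUD1 (chr16:56931946-56931993, plus strand): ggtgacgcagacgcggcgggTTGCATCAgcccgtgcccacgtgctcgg
AARS1 (chr16:70289666-70289713, minus strand): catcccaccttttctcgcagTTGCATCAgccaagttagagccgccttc

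The 4 kinases that can start this response were compared as well. EIF2AK2 (PKR) was at 175, 171 and 201 CPM with TBX2 and at 97.2, 82.3 and 104 CPM with TBX4 (log2 0.94 ± 0.08, edgeR adjusted p = 4.56e-10), with controls at 93.0 to 114 CPM. EIF2AK3 (PERK) and EIF2AK4 (GCN2) differed by -0.02 and 0.01 on the log2 scale, within the spread of the replicates. EIF2AK1 (HRI) was lower with TBX2 by 0.19 (edgeR adjusted p = 0.0896), but did not pass when TBX2 replicate a (-0.19), b (-0.189) or c (-0.179) or TBX4 replicate b (-0.156) or c (-0.173) was left out. It did not pass in DESeq2 (-0.183), in a fit of the 6 libraries alone (-0.177) or without the filter (-0.206) either. In the unfolded protein response of the endoplasmic reticulum, 9 of 24 genes were higher with TBX2 and 1 was higher with TBX4. Of all tested genes 6.66% and 5.61% were. With library totals 0 of the 24 passed. HSPA5, the chaperone BiP, was at 281, 189 and 356 CPM against 125, 142 and 186 CPM, a wide spread with groups that only just did not overlap (log2 0.86 ± 0.15, edgeR adjusted p = 0.000377). HERPUD1, ERN1 and XBP1 differed by 0.72, 0.52 and 0.49, whereas the chaperones HSP90B1, CANX and PDIA3 did not pass, with log2 differences of 0.01, -0.09 and -0.03.

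**Figure D3:**
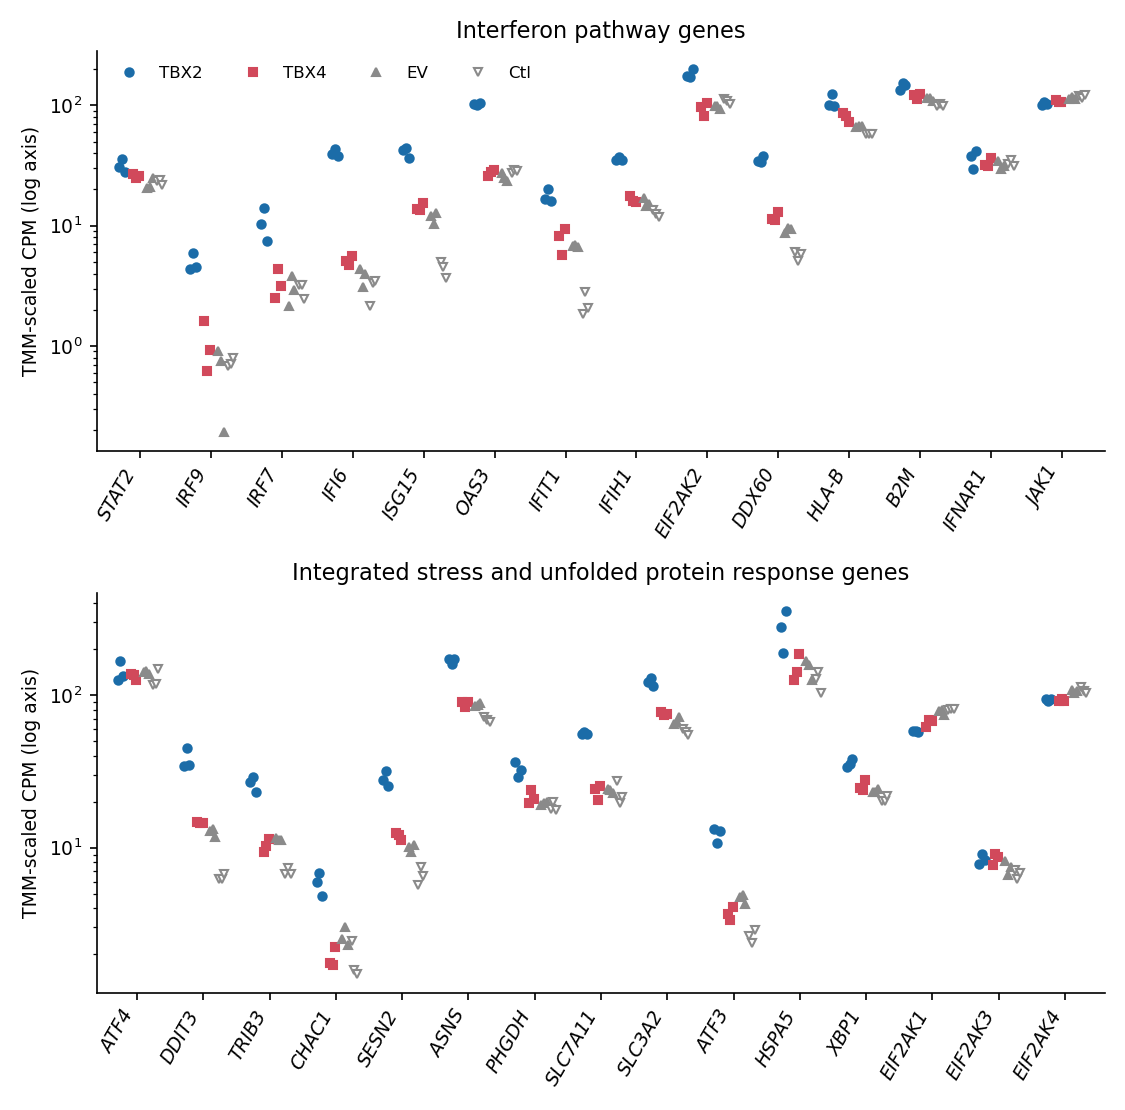
Levels of interferon pathway genes (top) and of stress response genes (bottom) in the TBX2, TBX4, EV and Ctl libraries. The y axis gives TMM-scaled CPM on a log scale and each point is a library. TBX2 libraries stand above TBX4 libraries for IFI6, OAS3, DDIT3, TRIB3 and ASNS, while IFNAR1, ATF4, EIF2AK3 and EIF2AK4 overlap.

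Immediate-early genes, which growth factors and stress switch on without new protein synthesis, differed for a minority of members. Of 27 tested, 6 were higher with TBX2 and 0 higher with TBX4, where 6.66% and 5.61% of all tested genes were. The median was 0.178, which library totals turned to -0.0649 where the median of all genes was -0.251. The number higher with TBX2 was 2 with library totals and 10 with the GC correction. EGR1 was at 75.4, 72.1 and 105 CPM with TBX2 and at 14.3, 16.5 and 15.8 CPM with TBX4, with a log2 difference of 2.43 ± 0.16 (edgeR adjusted p = 7.06e-12). The TBX4 libraries were in turn above the controls, at 5.13 to 12.6 CPM. ATF3 was at 13.2, 10.8 and 12.8 CPM against 3.67, 3.34 and 4.06 CPM, next to controls at 2.39 to 4.92 CPM (log2 1.73 ± 0.15, edgeR adjusted p = 4.63e-09). JUN and MAFF differed by 0.80 and 1.09. FOSB showed another pattern, with 10.2, 9.73 and 9.06 CPM for TBX2 and 7.90, 9.16 and 8.68 CPM for TBX4, which overlapped (edgeR adjusted p = 0.518), while the controls were at 0.395 to 1.61 CPM.

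Targets of NF-κB, the transcription factor of inflammation and survival, gave 8 of 16 tested members higher with TBX2 and 0 higher with TBX4. Of all tested genes 6.66% and 5.61% were. The median of these targets was 0.318. Single libraries left out gave 7 to 9, and library totals 0. The 8 called were BIRC2, BIRC3, CYLD, NFKB2, NFKBIE, RELB, TNFAIP3 and TRAF1. TNFAIP3, the deubiquitinase A20 that shuts the pathway off, was at 33.2, 31.5 and 34.6 CPM against 21.1, 23.7 and 22.2 CPM (log2 0.56 ± 0.09, edgeR adjusted p = 0.000205), with controls at 9.49 to 12.2 CPM. RELB and NFKB2, the subunits of the non-canonical branch, differed by 0.55 and 0.47, and CYLD, another deubiquitinase, by 0.46. The chemokines CCL20, CXCL2 and CXCL3 did not pass, with log2 differences of 0.52, 0.18 and 0.44.

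Other genes with large differences on the TBX2 side belonged to none of these lists. LDLRAD4, an inhibitor of TGF-β signalling, was at 9.39, 10.8 and 9.87 CPM with TBX2 and at 1.20, 1.47 and 1.20 CPM with TBX4 (log2 2.94 ± 0.24, edgeR adjusted p = 6.70e-10), with controls at 0.297 to 1.15 CPM. GRIN2B, a subunit of the NMDA receptor of neurons, was at 10.5, 8.23 and 10.0 CPM against 2.24, 1.32 and 1.11 CPM (log2 2.59 ± 0.20). ARRDC4, an arrestin that restrains glucose uptake, differed by 2.12 and ITGAM, the integrin αM of myeloid cells, by 1.94. For each of these the TBX2 libraries lay above all 3 TBX4 libraries and all controls. The group also held PLA2G4C, a cytosolic phospholipase, at 11.7, 13.0 and 11.8 CPM against 3.83, 3.96 and 3.05 CPM. AC079949.1, annotated as a miRNA, ranged from 331 to 1420 CPM with TBX2 and from 141 to 320 CPM with TBX4 (log2 1.73 ± 0.57, edgeR adjusted p = 0.0606). Its controls spanned 141 to 1060 CPM, and the difference did not pass without TBX2 replicate c (0.969), TBX4 replicate a (1.47) or TBX4 replicate b (1.75), or in DESeq2 (1.74). With the share of ENSG00000266658 as a covariate it was 0.201. A lncRNA without a symbol, ENSG00000248596 (chromosome 5), was at 16.6, 13.7 and 15.7 CPM against 1.04, 0.621 and 2.03 CPM, but 96.9% of its exon bases overlap other genes.

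On the TBX4 side the largest difference of a protein-coding gene named by the rule on size was that of TGFA (chromosome 2, 70674416 to 70781325, minus strand, GRCh37), a ligand of the EGF receptor. It was at 48.4, 47.5 and 46.5 CPM with TBX4 and at 22.2, 19.2 and 22.8 CPM with TBX2. The TBX4 libraries stood above the controls, at 22.7 to 29.3 CPM, whereas those of TBX2 lay at or below their lower end. The log2 difference was -1.16 ± 0.09 (edgeR adjusted p = 1.22e-10), and against the controls it was 0.91 for TBX4 (edgeR adjusted p = 2.80e-10) and -0.25 for TBX2 (edgeR adjusted p = 0.0262). RGS2, a brake on G-protein signalling, was at 5.83, 7.22 and 6.37 CPM with TBX4 against 2.40, 3.61 and 2.59 CPM (log2 -1.14 ± 0.21), and SERPINI1, a protease inhibitor, at 6.07, 5.74 and 4.71 CPM against 2.52, 3.01 and 2.43 CPM (log2 -1.04 ± 0.20). Both were higher than the controls with TBX4 and did not pass against them with TBX2. SOCS3, the inhibitor of JAK and STAT signalling, was at 13.5, 11.4 and 10.4 CPM with TBX4 and at 7.78, 6.22 and 5.18 CPM with TBX2 (log2 -0.86 ± 0.14, edgeR adjusted p = 0.000193), and here it was the TBX2 libraries that lay below the controls, at 8.50 to 11.6 CPM. PPL, the desmosomal protein periplakin, and MXD3, a repressor of the MYC network, showed that order as well, with log2 differences of -1.10 and -0.77.

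The core GGTGTGA was looked for in the same promoters. On either strand it was present in 3.43% of all promoters, in 2.98% of tested genes with a promoter, in 2.54% of genes higher with TBX2 and in 2.77% of genes higher with TBX4, so that both shares lay below that of the tested genes. Promoters with a match are shown for 3 genes higher with TBX4, with the match in capitals, in reverse complement for CDKN2C.
SOCS3 (chr17:78361060-78361106, minus strand): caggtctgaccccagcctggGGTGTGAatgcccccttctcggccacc
SERPINI1 (chr3:167735472-167735518, plus strand): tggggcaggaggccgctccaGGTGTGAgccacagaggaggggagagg
CDKN2C (chr1:50960678-50960724, plus strand): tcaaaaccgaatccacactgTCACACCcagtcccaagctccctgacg

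Of 24 tested genes of sterol synthesis and uptake, 7 were higher with TBX4 and 0 higher with TBX2, with a median of -0.12. Against the controls, which both contrasts share, 18 were lower with TBX2 and 16 lower with TBX4, where 16% and 4.83% of all tested genes were. Of 15 tested fatty acid genes, 3 were higher with TBX4 and 0 higher with TBX2. Over all tested genes, 5.61% were higher with TBX4 and 6.66% higher with TBX2. SCD, which makes monounsaturated fatty acids, was at 152, 139 and 133 CPM with TBX2 and at 227, 233 and 219 CPM with TBX4. The controls differed among themselves, with EV at 352 to 361 CPM and Ctl at 458 to 511 CPM. The TBX2, TBX4 and control libraries did not overlap (log2 -0.68 ± 0.07 for TBX2 over TBX4, edgeR adjusted p = 6.09e-08). SREBF1, the regulator of fatty acid genes, followed at 30.9 to 40.1, 42.9 to 53.9 and 65.6 to 112 CPM, with a log2 difference of -0.47 ± 0.09. Not all sterol genes shared this order, as 9 of the 24 had a positive log2 difference, of which 0 passed. SQLE, at -0.13, had the same sign but did not pass. With library totals 1 sterol gene was higher with TBX4.

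Glycolysis and hypoxia genes gave 14 of 32 tested members higher with TBX4 and 1 higher with TBX2, with a median of -0.208. Over all tested genes the shares were 5.61% and 6.66%. SLC2A1, the glucose carrier GLUT1, was at 34.7, 38.3 and 33.8 CPM with TBX4 and at 25.9, 24.2 and 24.8 CPM with TBX2 (log2 -0.51 ± 0.09, edgeR adjusted p = 0.000518). Enzymes along the pathway differed by similar amounts, with PGAM1 at -0.48, PGK1 at -0.45, GPI at -0.41, ENO1 at -0.40 and LDHA at -0.35. For these enzymes the TBX4 libraries lay within or close to the range of the controls and the TBX2 libraries below it. ENO1, for example, was at 832, 944 and 746 CPM with TBX2, at 1160, 1140 and 1030 CPM with TBX4 and at 1150 to 1340 CPM in the controls. VEGFA, also a stress response gene, was the member higher with TBX2, by 0.42 (edgeR adjusted p = 0.013). With library totals the counts were 0 in both directions.

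Genes of growth and the cell cycle were mostly called on the TBX4 side, with small differences. Over all tested genes, 5.61% were called on that side and 6.66% on the TBX2 side. Of 81 cytoplasmic ribosomal protein genes 34 were higher with TBX4 and 0 higher with TBX2, with a median of -0.199, and RPL7A was at 606, 605 and 544 CPM against 414, 482 and 396 CPM. This count moved between 14 without TBX2 replicate c or TBX4 replicate a, 17 without TBX2 replicate a, 20 without TBX4 replicate b and 47 without TBX2 replicate b, and was 0 with library totals. Many of these genes have processed pseudogenes that share reads. Of 29 replication-dependent histone genes 20 were higher with TBX4 and 0 higher with TBX2, with a median of -0.305, and the linker histone H1-5 was at 295, 287 and 275 CPM against 195, 207 and 181 CPM (log2 -0.55 ± 0.08, edgeR adjusted p = 2.28e-05). Histone copies are similar in sequence, and their messages lack poly(A) tails. Without TBX2 replicate c or TBX4 replicate b 13 were called.

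For DNA replication 11 of 50 genes were higher with TBX4 and 0 higher with TBX2, where 5.61% and 6.66% of all tested genes were. The median was -0.12. MCM7, of the replicative helicase, was at 384, 394 and 352 CPM with TBX4 and at 295, 333 and 264 CPM with TBX2 (log2 -0.34 ± 0.07, edgeR adjusted p = 0.00384), and the controls were at 385 to 431 CPM. Without TBX2 replicate a only 4 genes passed, without TBX4 replicate a 7 and without TBX4 replicate b 6. For mitosis 10 of 50 were higher with TBX4 and 1 higher with TBX2, and the numbers higher with TBX4 were 3 without TBX2 replicate a or TBX4 replicate a and 5 without TBX2 replicate c or TBX4 replicate b. KIF20A, a kinesin of cytokinesis, was at 123, 117 and 110 CPM with TBX4 and at 85.1, 97.4 and 81.4 CPM with TBX2 (log2 -0.40 ± 0.07, edgeR adjusted p = 0.000322). In a fit of the 6 libraries alone, 7 replication and 6 mitosis genes were higher with TBX4, DESeq2 gave 6 for mitosis, and both lists were at 0 calls with library totals. Of the inhibitors of cyclin-dependent kinases, CDKN1A was at 19.1 to 20.1 CPM with TBX2 and 18.2 to 24.2 CPM with TBX4 and did not pass, while CDKN2C was lower with TBX2, at 18.8, 20.3 and 18.5 CPM against 24, 25.4 and 24.1 CPM (log2 -0.35 ± 0.08, edgeR adjusted p = 0.00903). CCND2 was the cyclin higher with TBX2, at 2.75, 3.21 and 3.56 CPM against 0.878, 0.931 and 1.20 CPM (log2 1.65 ± 0.28, edgeR adjusted p = 0.000219). Of 17 tested CDK inhibitor and RB genes, CCND2 was the 1 higher with TBX2, and 5 were higher with TBX4. Over all tested genes the shares were 6.66% and 5.61%. DESeq2 called 0 members of this list higher with TBX2 and 4 higher with TBX4. Single libraries left out gave 2 to 4 higher with TBX4.

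**Figure D4:**
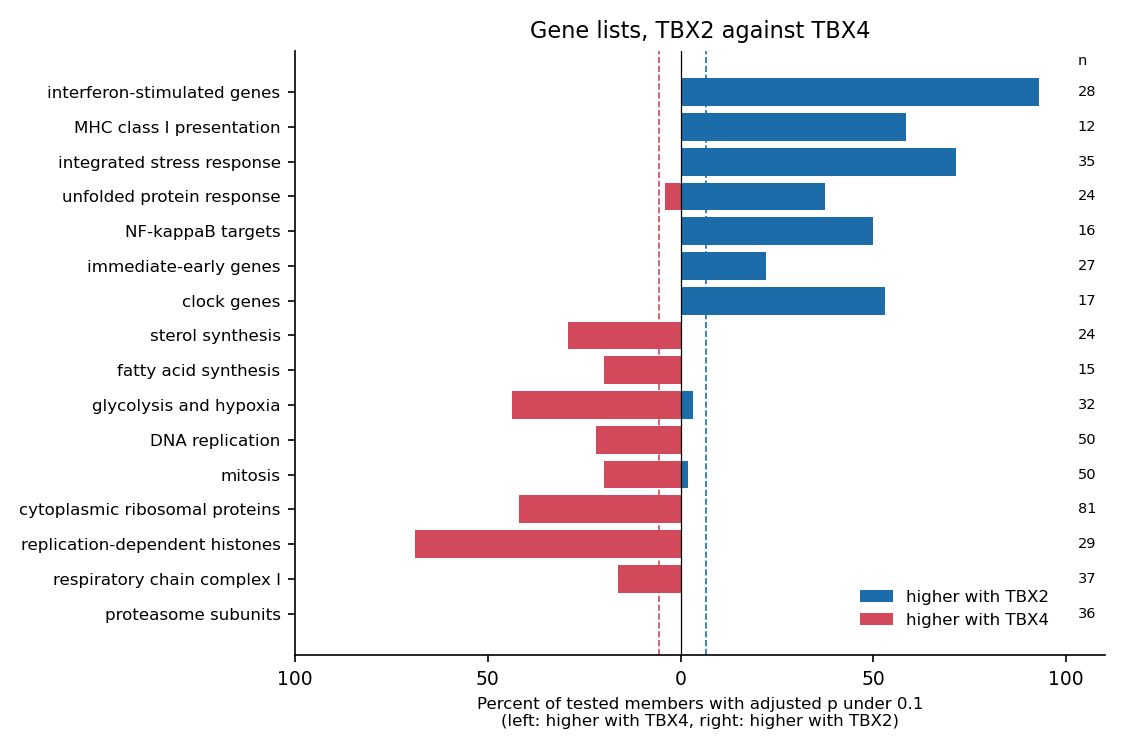
Percent of the tested members of 16 gene lists that were higher with TBX2 (blue, to the right) or higher with TBX4 (red, to the left) at an edgeR adjusted p under 0.1. Dashed lines mark the share of all tested genes called in each direction, 6.66% and 5.61%, and n is the number of tested members. Interferon-stimulated and integrated stress response genes extend farthest to the right and histone genes farthest to the left; with library totals in place of TMM, 1 sterol gene and 0 members of the other lists drawn were higher with TBX4.

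A stretch of chromosome 18p stood out after the values were seen. From ZNF519 to CYP4F35P (18, 14057456 to 14338833, GRCh37, a span of 281 kb), all 11 tested genes were lower with TBX2 than with TBX4, 9 of them past the threshold, and 9 were also lower than the controls with TBX2. Of all tested genes 5.61% were higher with TBX4 (8.03% on chromosome 18), and 16% were lower than the controls with TBX2. Both edges were set after the values were seen, so the shared direction depends in part on how the stretch was drawn. ANKRD20A5P, a transcribed pseudogene, was at 27.2, 23.6 and 26.7 CPM with TBX2, at 63.2, 65.8 and 67.6 CPM with TBX4 and at 43.3 to 49.7 CPM in the controls. The groups did not overlap, and the log2 difference was -1.35 ± 0.08 (edgeR adjusted p = 1.79e-12). ZNF519, a zinc finger gene, was at 28.8, 28.6 and 29.1 CPM against 57.0, 49.1 and 46.4 CPM (log2 -0.82 ± 0.08, edgeR adjusted p = 6.51e-08). The next tested gene outward, MC5R, differed by -0.473 and did not pass (edgeR adjusted p = 0.452). Farther out FAM210A differed by 0.61 and LDLRAD4 by 2.94, while RNMT, at 0.19, lost its call without TBX2 replicate a or c or TBX4 replicate a or b. Several of the 11 are pseudogenes with near-identical copies elsewhere in the genome, and neighbours that overlap can share reads, so the number of separate transcripts is uncertain.

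**Figure D5:**
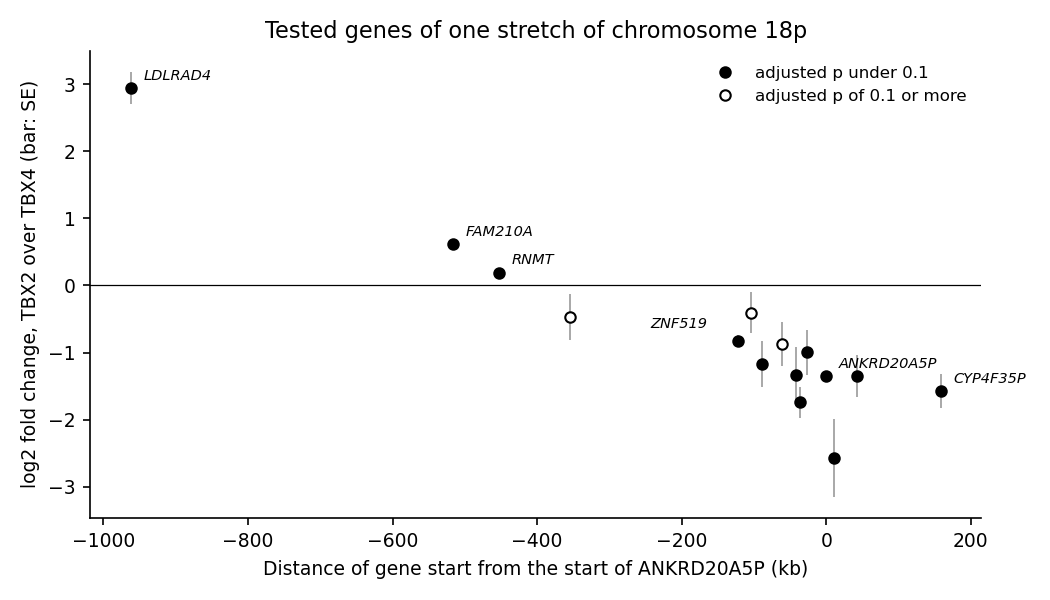
Log2 fold change of TBX2 over TBX4 with its SE (y axis) for 15 tested genes on chromosome 18p against the distance of each gene's annotated start from that of ANKRD20A5P in kb (x axis). Filled points passed an edgeR adjusted p under 0.1. The 11 genes from ZNF519 to CYP4F35P lie below 0 and the leftmost genes, LDLRAD4, FAM210A and RNMT, above it.

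Of 36 genes that the study names for these cells, a list chosen on these samples and so no independent evidence, 5 were higher with TBX2 and 9 higher with TBX4, of which 5 remained in number without TBX2 replicate c or without TBX4 replicate b. Over all tested genes the shares were 6.66% and 5.61%. The histone demethylase KDM7A was at 16.1, 12.7 and 16.3 CPM with TBX2 and at 5.99, 6.52 and 6.0 CPM with TBX4 (log2 1.27 ± 0.14, edgeR adjusted p = 1.73e-07), and the controls lay below both at 3.23 to 5.46 CPM. KDM6B, a demethylase of H3K27, was at 18.5, 11.8 and 16.7 CPM against 10.3, 16.1 and 14.9 CPM, and the groups overlapped. Over all 21 tested histone demethylases 2 were higher with TBX2, KDM7A and KDM5B, where 6.66% of all tested genes were, and the median was 0.0481. KDM5B did not pass without TBX2 replicate a (0.234) or b (0.219), TBX4 replicate a (0.216) or b (0.256), without the filter (0.226) or with the share of ENSG00000266658 as a covariate (0.205). The chromatin remodeller CHD2 differed by 0.31 (edgeR adjusted p = 0.0146), and AXL, a receptor tyrosine kinase, by -0.27 (edgeR adjusted p = 0.0144), with both plasmids lower than the controls for AXL. Of 4 tested genes reported elsewhere as T-box targets, 0 passed in edgeR, and none of them was separated between the groups.

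The cell type was checked by markers. Lung epithelial, fibroblast, immune and endothelial markers, 19 genes in all, did not reach the filter. The epithelial markers CDH1 and EPCAM had 1 and 7 counts over the 3 TBX2 libraries and 0 and 2 over the 3 TBX4 libraries. VIM, the mesenchymal intermediate filament, was at 689 to 750 CPM with TBX2 and at 785 to 854 CPM with TBX4. Of 4 mesenchymal markers, VIM was higher with TBX4 (log2 -0.19) and ZEB1 higher with TBX2 (log2 0.27), and with the share of ENSG00000266658 as a covariate 0 passed. VIM did not pass without TBX2 replicate a (-0.19) or b (-0.156) or TBX4 replicate a (-0.185) or c (-0.158). Without TBX2 replicate c or TBX4 replicate b, ZEB1 did not pass. The keratins KRT8 and KRT18 were lower with TBX2 by 0.56 and 0.39 on the log2 scale (edgeR adjusted p = 0.000533 and 0.00473), with KRT8 at 23.0, 22.4 and 19.3 CPM against 33.2, 33.5 and 29.4 CPM.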

How the data were processed

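Total RNA was sequenced paired-end. Per the labels and the study's methods, the authors converted the reads with bcl2fastq 1.8.4, aligned them with STAR 2.3.0 to GRCh37 and counted them per gene with featureCounts without strand. The deposited values are raw counts per gene, with replicates kept apart. From these counts, genes above 5 counts in 10 or more of the 18 libraries were tested with edgeR 4.0.16 (R 4.3.3): TMM scaling, 1 quasi-likelihood fit of all 18 libraries with 6 group means, the contrast TBX2 minus TBX4 and Benjamini-Hochberg adjusted p under 0.1. Each SE was obtained by dividing the size of the log2 fold change by the root of its F. Symbols, known for 91.8% of tested genes, and positions are from GENCODE lifted to GRCh37, and promoters from RefSeq (GRCh38.p14). The members and lists were chosen with earlier results of these data known. Genes were named by a rule: T-box genes, the 12 largest called differences per direction with a symbol, at least 5 CPM and groups apart, the 6 smallest p beyond these, up to 4 called members per list, genes named by the study and genes within 1 Mb of the pair. Other genes printed, and the stretch of chromosome 18, were chosen after their values were seen. On counts simulated for this comparison with 200 changed genes among 15576, edgeR recovered 98.5% and 8.8% of its calls were false. Among the genes changed by 1 on the log2 scale, the smallest size used there, it recovered 97%. The changed genes were drawn only from those above a minimum mean CPM, so recovery of genes at lower levels was not tested. Recovery of smaller differences, such as the median called size of 0.378, was not tested either. Alternatives were DESeq2 1.42.0, other scalings and filters, a GC correction, a replicate block, a covariate and single libraries left out. The columns 4a, 4b and 4c were matched to samples by the number in their titles. Some items that the rule names are not reported here.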

Additional observations from a re-analysis of the deposited data

Results flagged for a closer look

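T-box transcripts were also seen in libraries outside the comparison, above the 6 controls. TBX4 averaged 0.946 CPM in the 3 TBX3 libraries (0.421 to 1.5 CPM, with 7, 10 and 6 counts) and 2.09 CPM in the 3 TBX5 libraries (1.22 to 3.56 CPM, with 11, 18 and 8 counts), where the controls held 0 to 0.0989 CPM. TBX3 averaged 10.2 CPM in the TBX5 libraries (7.71 to 13.2 CPM, with 119, 39 and 53 counts), against 1.37 to 3.32 CPM in the controls. The source of these reads was not tested.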

How the results depend on the processing

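With library totals in place of TMM, 51 genes were higher with TBX2 and 25 higher with TBX4, with 67.1% of calls on the TBX2 side. Totals without rRNA, chosen after seeing the data, gave 1095 and 701, with 61.0% on the TBX2 side. DESeq2 size factors gave 1055 and 862, and TMM without ENSG00000266658 gave 1036 and 879. A further limit of 1 on the size of the log2 fold change left 134 and 43, and an adjusted p under 0.05 left 721 and 543. Leaving out single libraries gave 676 to 1004 genes higher with TBX2 and 498 to 927 higher with TBX4. The replicate block gave 1007 and 864, and the correlations of same-lettered deviations were -0.0731, 0.0474 and 0.104, so the letters were not taken to pair the libraries. Under the block EIF2AK1 was at -0.187 and did not pass. DESeq2 called 708 and 622. Of the genes named, none of the following passed in edgeR, apart from RNMT, and their sign depended on the setting. With library totals, which move all genes by -0.251, the log2 difference was -0.0965 for TBX2-AS1, -0.125 for IFNAR1, -0.236 for EIF2AK4, -0.151 for ATF4, -0.0649 for FOSB, -0.0585 for KDM6B and -0.0553 for RNMT. EIF2AK4 was at -0.0105 without the filter, and EIF2AK3 at 0.0115 with the share of ENSG00000266658 as a covariate. With single libraries left out, TBX2-AS1 ranged from -0.147 to 0.418, IFI27 from -0.217 to 0.22, EIF2AK3 from -0.094 to 0.0415, ATF4 from -0.0314 to 0.181, KDM6B from -0.00315 to 0.365 and CDKN1A from -0.194 to 0.00883. The causes were not tested.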

Other observations

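Circadian clock genes were another group on the TBX2 side. Of 17 tested, 9 were higher with TBX2 and 0 higher with TBX4, where 6.66% and 5.61% of all tested genes were. The median log2 difference was 0.321, and with library totals 0 of the 17 passed. NR1D2, a nuclear receptor that represses BMAL1, was at 48.5, 42.7 and 44.7 CPM with TBX2 and at 27.1, 27.6 and 27.9 CPM with TBX4, which lay with the controls at 26.4 to 27.9 CPM (edgeR adjusted p = 1.62e-07). PER2, a core repressor of the clock, was at 10.3, 11.0 and 11.2 CPM against 6.95, 5.98 and 5.26 CPM (edgeR adjusted p = 0.000282).

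Outside the lists' main themes, DHRS2, a short-chain dehydrogenase, was at 35.3, 45.5 and 38.0 CPM with TBX2, at 12.6, 13.5 and 12.8 CPM with TBX4 and at 2.64 to 5.14 CPM in the controls (edgeR adjusted p = 1.22e-10). GADD45A, a growth arrest gene, was at 41.4, 38.1 and 50.7 CPM against 17.3, 19.1 and 23.0 CPM, where the TBX4 libraries lay close to the controls at 18.1 to 22.9 CPM. COL12A1, a fibril-associated collagen, was at 81.7, 85.3 and 84.2 CPM against 48.2, 48.7 and 52.1 CPM (edgeR adjusted p = 9.74e-09). HEY1, a Notch target, was higher with TBX2 by 1.76 on the log2 scale (edgeR adjusted p = 0.000128). HEY1 and DTX3L were the 2 of 22 tested members of the Notch pathway list higher with TBX2, and 1 was higher with TBX4. Over all tested genes the shares were 6.66% and 5.61%. The median of this list was 0.06, and DESeq2 called 1 member higher with TBX2 and 0 higher with TBX4.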
